A study of Mus musculus with 12 samples.

Results

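The VEGF, angiopoietin and apelin genes are 9 genes picked by symbol from the 12528 genes of the deposited mouse heart tables: the VEGF ligands *Vegfa*, *Vegfb*, *Vegfc* and *Pgf*, the TIE2 ligands *Angpt1* and *Angpt2*, the lipoprotein lipase inhibitor *Angptl4*, the apelin precursor *Apln* and its receptor *Aplnr*. All 9 were found. Their levels were measured by RNA-seq in 3 groups of 4 libraries each: *Bmi1*-CPC after acute myocardial infarction (AMI), *Bmi1*-CPC in homeostasis and *Sca-1*-YFP- cells in homeostasis. All animals were adult C57BL/6 *Bmi1*CreER/+;*Rosa26*YFP/+ mice, in which tamoxifen (TM) switches on YFP permanently in cells that use the *Bmi1* promoter at that time, and every group received 3 daily TM injections (9 mg for a mouse of 40 g). In the homeostatic groups the hearts were taken 5 days after induction, with 6 mice pooled per library. In the AMI group a coronary artery was tied off 5 days after induction and the hearts were taken 5 days later, with 2 to 3 mice pooled per library. AMI *Bmi1*-CPC were set against cells of uninjured hearts, so surgery, ligation and the longer time after TM cannot be told apart. *Bmi1*-CPC are the YFP+ cells of the digested heart, and *Sca-1*-YFP- cells are SCA-1+ cells without YFP. The library titles read SCApYFPp for both *Bmi1*-CPC groups and SCApYFPn for the *Sca-1*-YFP- cells. The study's methods describe the *Bmi1*-CPC sort by YFP alone, so whether these cells were also selected for SCA-1 cannot be told. CD45+ blood cells were removed in the sort of the *Sca-1*-YFP- cells, and no such step is described for *Bmi1*-CPC.

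VEGF-A, VEGF-B and placental growth factor (PGF) bind the receptor FLT1, VEGF-A signals for vessel growth mainly through KDR, and VEGF-C acts on FLT4, which guides lymphatic growth. ANGPT1, made chiefly by cells around the vessel, activates TIE2 (encoded by *Tek*) and keeps vessels quiet, while ANGPT2, made by endothelial cells, can oppose it. Apelin comes from sprouting endothelial cells, and its receptor is found on endothelium and heart muscle. In the heart, *Vegfa* and *Angptl4* are known to respond to low oxygen.

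The libraries held 6784686 to 8078721 reads in AMI *Bmi1*-CPC, 4063619 to 4993906 in homeostatic *Bmi1*-CPC and 3397621 to 8031666 in the *Sca-1*-YFP- cells. Values are the authors' normalized values, which are reads scaled by 1 factor per library. The sorted populations were mixed by their markers. The summed value of 12 endothelial markers was 2564 to 3667 in AMI *Bmi1*-CPC, 4257 to 5171 in homeostatic *Bmi1*-CPC and 1091 to 2324 in the *Sca-1*-YFP- cells. The sum of 10 fibroblast markers was 13016 to 18026 in AMI *Bmi1*-CPC, 4181 to 7754 in homeostatic *Bmi1*-CPC and 22263 to 25866 in the *Sca-1*-YFP- cells. The sum of 10 macrophage markers was 770.3 to 1359 in AMI *Bmi1*-CPC, 152 to 298 in homeostatic *Bmi1*-CPC and 3.04 to 4.85 in the *Sca-1*-YFP- cells, in which *C1qa*, *C1qc* and *Emr1* had 0 reads in every library. After AMI the 8 activated fibroblast markers were all higher, with sums of 7599 to 16327 in AMI *Bmi1*-CPC, 724 to 1009 in homeostatic *Bmi1*-CPC and 1311 to 2081 in the *Sca-1*-YFP- cells. All 6 proliferation markers were higher too (sums of 321 to 575 in AMI *Bmi1*-CPC, 119.9 to 137 in homeostatic *Bmi1*-CPC, 39.7 to 67.1 in the *Sca-1*-YFP- cells), and all 8 cardiomyocyte markers were lower (219 to 312 in AMI *Bmi1*-CPC, 557 to 879 in homeostatic *Bmi1*-CPC, 56.1 to 142 in the *Sca-1*-YFP- cells). Genes of the mitochondrial genome took 25.7% to 43.7% of the reads in AMI *Bmi1*-CPC, 33.8% to 44.3% in homeostatic *Bmi1*-CPC and 13.5% to 30.4% in the *Sca-1*-YFP- cells, so that the homeostatic groups did not overlap. The part of these shares and of the marker lists in the results was not tested. *Xist* was low in replicate 4 of both homeostatic groups, at 1.80 in *Bmi1*-CPC and 3.45 in the *Sca-1*-YFP- cells, against 717 or more in all other libraries.

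The promoters shown here are those of 2 genes that were lower in homeostatic *Bmi1*-CPC than in the *Sca-1*-YFP- cells (*Vegfa* and *Pgf*) and of 1 that was higher (*Apln*). Each is the stretch of 250 bases before the RefSeq gene start, on the gene's strand, at chr17:46032378-46032627 for *Vegfa*, chr12:85177314-85177563 for *Pgf* and chrX:48034854-48035103 for *Apln* (GRCm38.p6, all on the minus strand). Capitals mark the GC box, GGGCGG or CCGCCC, the letters that SP1-type factors are known to bind.
Vegfa: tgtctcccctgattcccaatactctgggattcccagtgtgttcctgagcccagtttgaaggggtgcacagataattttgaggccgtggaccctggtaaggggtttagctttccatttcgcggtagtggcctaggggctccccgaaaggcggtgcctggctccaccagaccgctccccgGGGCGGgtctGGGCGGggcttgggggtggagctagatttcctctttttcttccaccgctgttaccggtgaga
Pgf: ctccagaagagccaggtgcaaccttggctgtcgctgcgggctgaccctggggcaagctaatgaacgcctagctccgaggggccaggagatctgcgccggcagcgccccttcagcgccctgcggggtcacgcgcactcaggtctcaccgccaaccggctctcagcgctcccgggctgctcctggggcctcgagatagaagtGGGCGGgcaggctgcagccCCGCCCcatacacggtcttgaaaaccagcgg
Apln: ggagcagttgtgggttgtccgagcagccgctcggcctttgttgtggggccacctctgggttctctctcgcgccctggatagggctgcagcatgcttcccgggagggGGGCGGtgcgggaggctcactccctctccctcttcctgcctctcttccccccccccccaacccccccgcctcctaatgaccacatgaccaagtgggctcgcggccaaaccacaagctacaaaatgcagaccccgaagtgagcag
Counted back from the start, the GC boxes began at −72 and −62 in *Vegfa*, at −50 and −31 in *Pgf* and at −144 in *Apln*. Of 32851 mouse promoters of this length, 32.7% hold a GC box on either strand. The core of the hypoxia response element, ACGTG or CACGT, was in 16.6% of them and in none of these 3 stretches. Bases farther upstream than 250 were not searched. A further RefSeq *Vegfa* start lies downstream of the one shown, with its 250 bases at chr17:46025164-46025413 on the minus strand. That stretch comes after the first start, so it does not lie upstream of the gene. It held 1 hypoxia core and 1 GC box. A further *Pgf* start held 0 of either. RefSeq promoters were matched for 5 of the 9 genes. Those of *Vegfb* and *Vegfc*, which were not called in homeostasis, are not shown and held 4 and 2 GC boxes. Each matched gene thus held a GC box, whether called or not. Such letters are a description and no sign of binding.

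Of the 9 genes, 6 were called between homeostatic *Bmi1*-CPC and *Sca-1*-YFP- cells: *Apln*, *Aplnr* and *Angpt2* were higher in *Bmi1*-CPC, and *Vegfa*, *Pgf* and *Angpt1* were lower. Of all 12450 genes tested, 34.4% were called in this comparison, 16.8% higher and 17.6% lower (limma on log2(value + 1), two-sided, Benjamini-Hochberg adjusted p under 0.05). These were 2090 and 2196 genes, against 1328 higher and 3386 lower when edgeR used total reads, and the calls of the 6 genes held there and with values rescaled without the mitochondrial genes. Between AMI and homeostatic *Bmi1*-CPC 3 of the 9 were called, *Vegfa*, *Angpt1* and *Angptl4*, all higher after AMI, where 43.4% of 12486 genes were called and 21.4% were higher. That count of 3 in 9 was thus no larger than the background. For AMI *Bmi1*-CPC over *Sca-1*-YFP- cells, a comparison used only to place the group levels, 6 of the 9 were called, beside 51.8% of 12521 genes. The libraries of the groups did not overlap for 6 of the 9 genes in homeostasis (33.7% of all genes tested), for 3 after AMI (40.6%) and for 7 between AMI *Bmi1*-CPC and *Sca-1*-YFP- cells (46.8%). The median log2 fold change of the 9 genes was 0.32 in the homeostatic comparison and 0.04 in the AMI comparison, beside 0.0037 and −0.018 over all genes tested. Both comparisons use the same 4 homeostatic *Bmi1*-CPC libraries, so their values are given side by side only.

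**Figure D1:**
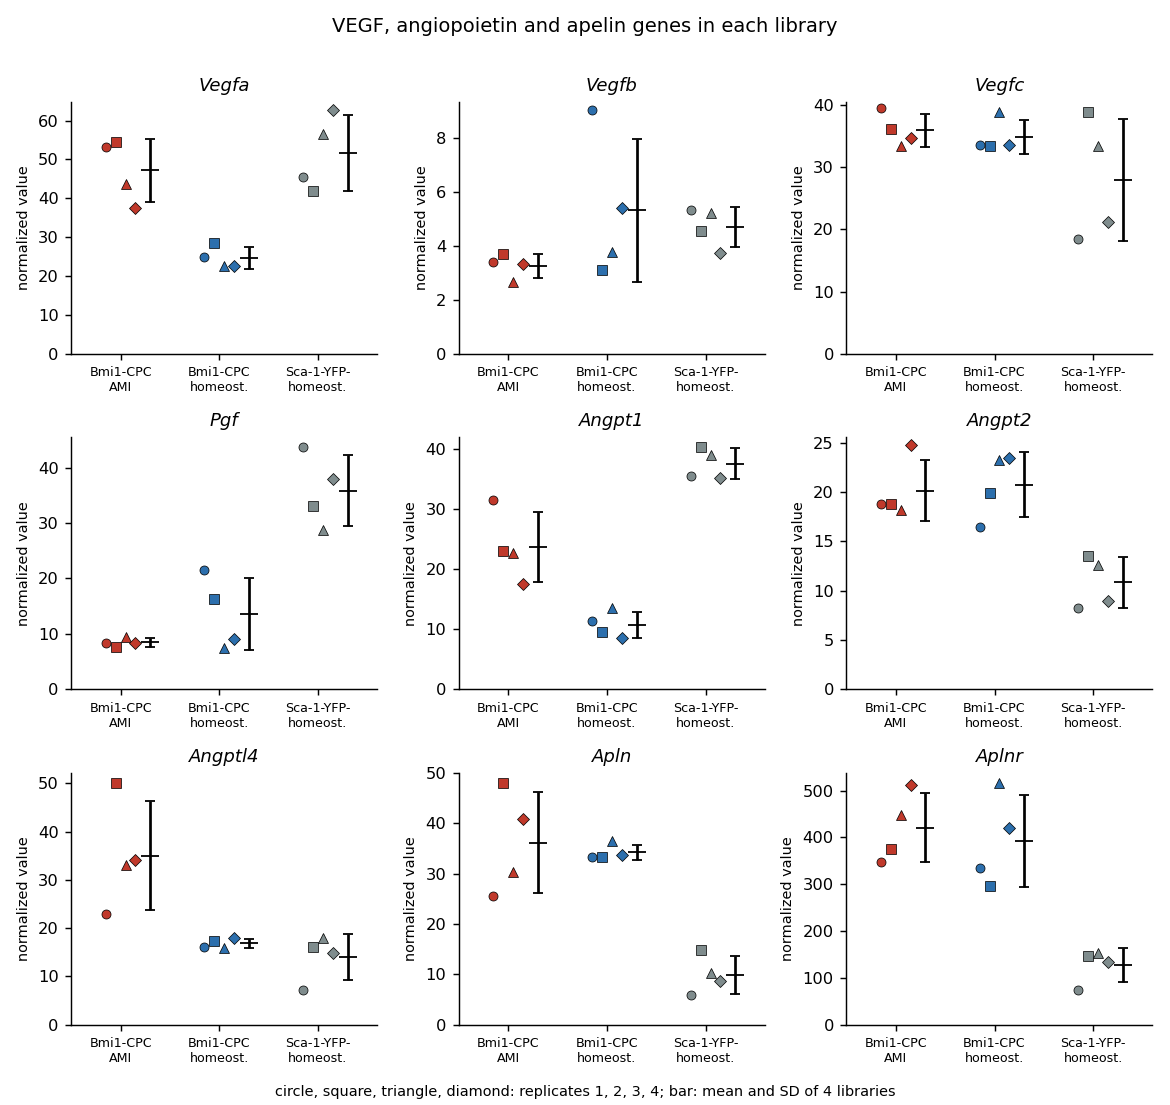
Normalized value of each of the 9 genes (y axis, from 0) in AMI *Bmi1*-CPC, homeostatic *Bmi1*-CPC and *Sca-1*-YFP- cells, with 1 point per library and the mean ± SD of 4 libraries as a bar. *Apln* and *Aplnr* lay lowest in the *Sca-1*-YFP- cells, *Vegfa* and *Angpt1* lowest in homeostatic *Bmi1*-CPC, and *Angptl4* highest in AMI *Bmi1*-CPC.

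**Figure D2:**
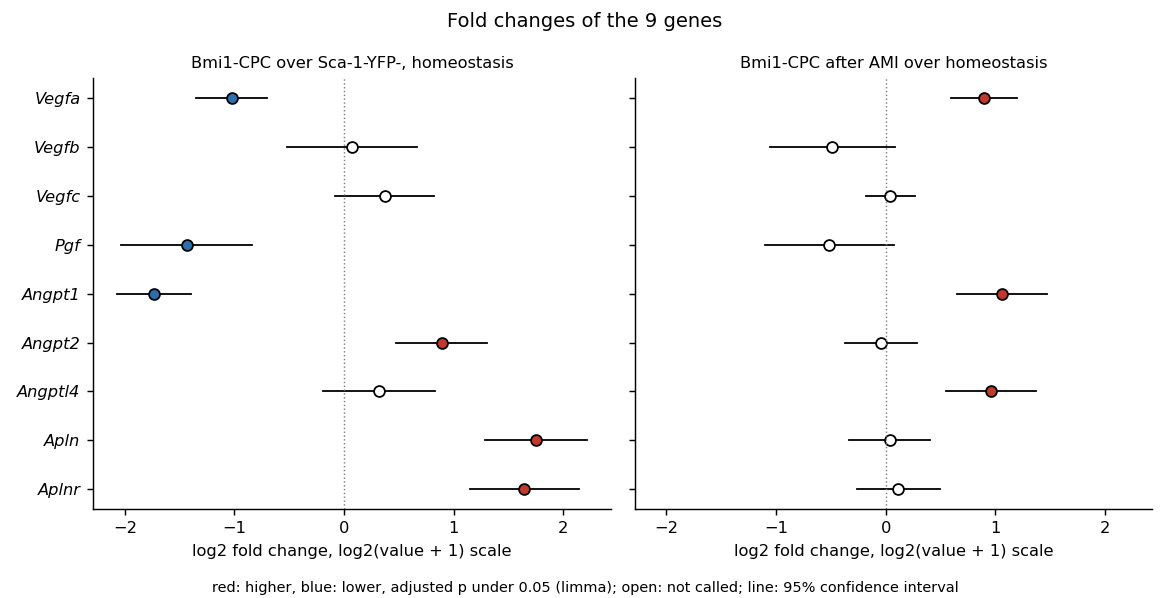
Log2 fold changes on the log2(value + 1) scale with their 95% confidence intervals for homeostatic *Bmi1*-CPC over *Sca-1*-YFP- cells (left) and AMI over homeostatic *Bmi1*-CPC (right), on the same x axis. In the left panel 6 of the 9 genes were called, 3 higher (red) and 3 lower (blue), and in the right panel 3, all higher.

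*Vegfa* (ENSMUSG00000023951), the main VEGF of vessel growth, was lower in homeostatic *Bmi1*-CPC than in either other group. Its normalized values were 53.3, 54.5, 43.7 and 37.5 in AMI *Bmi1*-CPC, 25.0, 28.5, 22.5 and 22.7 in homeostatic *Bmi1*-CPC and 45.6, 41.8, 56.6 and 62.8 in the *Sca-1*-YFP- cells (replicates 1 to 4). All 4 homeostatic *Bmi1*-CPC libraries lay below all 8 others, and the AMI and *Sca-1*-YFP- libraries overlapped. On the log2 scale *Vegfa* changed by −1.02 (SE 0.15, adjusted p = 1.8e-04) for homeostatic *Bmi1*-CPC over *Sca-1*-YFP- cells and 0.90 (SE 0.14, adjusted p = 3.1e-04) for AMI over homeostatic *Bmi1*-CPC. Between AMI *Bmi1*-CPC and *Sca-1*-YFP- cells, where population and infarction change together, *Vegfa* was not called (log2 fold change −0.12, 95% confidence interval −0.46 to 0.21, adjusted p = 0.53).

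*Pgf* (ENSMUSG00000004791), which among the VEGF receptor kinases binds FLT1, was highest in the *Sca-1*-YFP- cells. It had 8.37, 7.63, 9.52 and 8.30 in AMI *Bmi1*-CPC, 21.5, 16.3, 7.43 and 9.01 in homeostatic *Bmi1*-CPC and 43.7, 33.1, 28.7 and 37.9 in the *Sca-1*-YFP- cells. Both *Bmi1*-CPC groups lay wholly below the *Sca-1*-YFP- libraries, and the homeostatic *Bmi1*-CPC libraries were spread, with replicates 1 and 2 above replicates 3 and 4. *Pgf* had a log2 fold change of −1.44 (SE 0.27, adjusted p = 0.0013) for homeostatic *Bmi1*-CPC and −1.95 (SE 0.14, adjusted p = 1.3e-06) for AMI *Bmi1*-CPC over *Sca-1*-YFP- cells. Between AMI and homeostatic *Bmi1*-CPC it was −0.51 (95% confidence interval −1.10 to 0.08, adjusted p = 0.15), and without replicate 3 of homeostatic *Bmi1*-CPC it was −0.74 and passed the threshold (adjusted p = 0.032). So *Vegfa* and *Pgf*, both lower in homeostatic *Bmi1*-CPC than in the *Sca-1*-YFP- cells, had fold changes of opposite sign after AMI, of which that of *Pgf* was not called. The ratio of *Pgf* to *Vegfa* within a library was 0.140 to 0.221 in AMI *Bmi1*-CPC, 0.330 to 0.858 in homeostatic *Bmi1*-CPC and 0.507 to 0.958 in the *Sca-1*-YFP- cells.

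*Vegfc* (ENSMUSG00000031520), the lymphatic growth factor, was near 35 in most libraries. It had 39.4, 36.1, 33.3 and 34.7 in AMI *Bmi1*-CPC, 33.6, 33.4, 38.9 and 33.5 in homeostatic *Bmi1*-CPC and 18.4, 38.9, 33.3 and 21.1 in the *Sca-1*-YFP- cells. The *Sca-1*-YFP- libraries were split, with replicates 2 and 3 at or near the level of *Bmi1*-CPC and replicates 1 and 4 below it. Their endothelial marker sums were 1091, 2324, 1559 and 1657 (replicates 1 to 4), and the part of these sums in *Vegfc* was not tested. *Vegfc* was not called for homeostatic *Bmi1*-CPC over *Sca-1*-YFP- cells (log2 fold change 0.37, 95% confidence interval −0.08 to 0.82, adjusted p = 0.20) nor after AMI (0.04, −0.18 to 0.27, adjusted p = 0.77). Without replicate 2 of the *Sca-1*-YFP- cells the homeostatic change was 0.55 and was called (adjusted p = 0.038), as was that of AMI *Bmi1*-CPC over *Sca-1*-YFP- cells (0.59, adjusted p = 0.015), which with all libraries was 0.41 (adjusted p = 0.11). *Vegfb* (ENSMUSG00000024962), a ligand of FLT1 linked to fatty acid handling, rested on 13 to 50 reads per library. Its mean was 3.27 ± 0.444 in AMI *Bmi1*-CPC, 5.32 ± 2.65 in homeostatic *Bmi1*-CPC and 4.71 ± 0.737 in the *Sca-1*-YFP- cells (SD, n = 4 each). It was called in neither main comparison, and its log2 fold change in homeostasis, 0.07, turned negative when libraries were scaled to their total reads (−0.16) and without replicate 1 of homeostatic *Bmi1*-CPC (−0.18). Every AMI library lay just below every *Sca-1*-YFP- library, with a log2 fold change of −0.42 that was not called (adjusted p = 0.063) but passed without replicate 4 of the *Sca-1*-YFP- cells (−0.50, adjusted p = 0.035), with total reads in edgeR (−0.71, adjusted p = 0.049) and in limma without a variance trend (adjusted p = 0.025).

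*Figf*, which encodes VEGF-D and was chosen as the remaining VEGF ligand of the tables, had fold changes of the same sign as *Vegfa* in both comparisons and of larger size, a difference that was not tested. It had 44.5, 45.2, 28.4 and 22.1 in AMI *Bmi1*-CPC, 11.1, 17.4, 6.21 and 9.49 in homeostatic *Bmi1*-CPC and 43.9, 40.5, 55.6 and 39.3 in the *Sca-1*-YFP- cells, and homeostatic *Bmi1*-CPC overlapped neither other group. Its log2 fold change was −1.99 (adjusted p = 4.6e-05) for homeostatic *Bmi1*-CPC over *Sca-1*-YFP- cells and 1.60 (adjusted p = 8.6e-04) for AMI over homeostatic *Bmi1*-CPC. Of the 5 VEGF ligands, 3 were thus lower in homeostatic *Bmi1*-CPC than in the *Sca-1*-YFP- cells and none higher, and after AMI 2 were higher and none lower. Of all genes tested, 17.6% were lower in homeostasis and 21.4% were higher after AMI. All of these ligands but *Figf* are also counted among the 9 genes.

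The VEGF receptors and co-receptors went the other way. All 5 (*Flt1*, *Kdr*, *Flt4*, *Nrp1* and *Nrp2*) were higher in homeostatic *Bmi1*-CPC than in the *Sca-1*-YFP- cells, and 3 of them were lower after AMI. Of all genes tested, 16.8% were higher in homeostasis, and 2750 of 12486 were lower after AMI. *Flt1*, which binds VEGF-A, VEGF-B and PGF, had 589.9, 530.7, 720.8 and 908.6 in AMI *Bmi1*-CPC, 1277, 1345, 1385 and 1274 in homeostatic *Bmi1*-CPC and 286.9, 649.1, 369.9 and 388.9 in the *Sca-1*-YFP- cells. Homeostatic *Bmi1*-CPC lay above all other libraries, and the other groups overlapped through replicate 2 of the *Sca-1*-YFP- cells. The log2 fold change of *Flt1* was 1.70 (adjusted p = 4.0e-05) in homeostasis and −0.97 (adjusted p = 3.6e-04) after AMI. *Flt4*, the receptor of VEGF-C and VEGF-D, averaged 78.3 ± 10.2 in AMI *Bmi1*-CPC, 137 ± 2.83 in homeostatic *Bmi1*-CPC and 43.0 ± 14.4 in the *Sca-1*-YFP- cells, with log2 fold changes of 1.70 (adjusted p = 2.1e-05) and −0.81 (adjusted p = 7.5e-05). *Nrp2*, a co-receptor of VEGF-C, changed by 1.42 and −0.52 (adjusted p = 1.0e-05 and 0.0015), and the second call was lost when libraries were scaled to their total reads (−0.40, adjusted p = 0.064). *Kdr*, the main signalling receptor of VEGF-A, changed by 1.68 (adjusted p = 4.9e-04) in homeostasis, and after AMI its fold change of −0.52 was not called (adjusted p = 0.10). That call was made without AMI replicate 4 (−0.68, adjusted p = 0.039) or without homeostatic *Bmi1*-CPC replicate 1 (−0.67, adjusted p = 0.044). The endothelial marker sum moved with these receptors: 12 of its 12 genes were higher in homeostatic *Bmi1*-CPC than in the *Sca-1*-YFP- cells and 9 were lower after AMI. Its part in the receptor values was not tested, and in such bulk samples fewer cells of a type and less RNA per cell cannot be told apart.

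**Figure D3:**
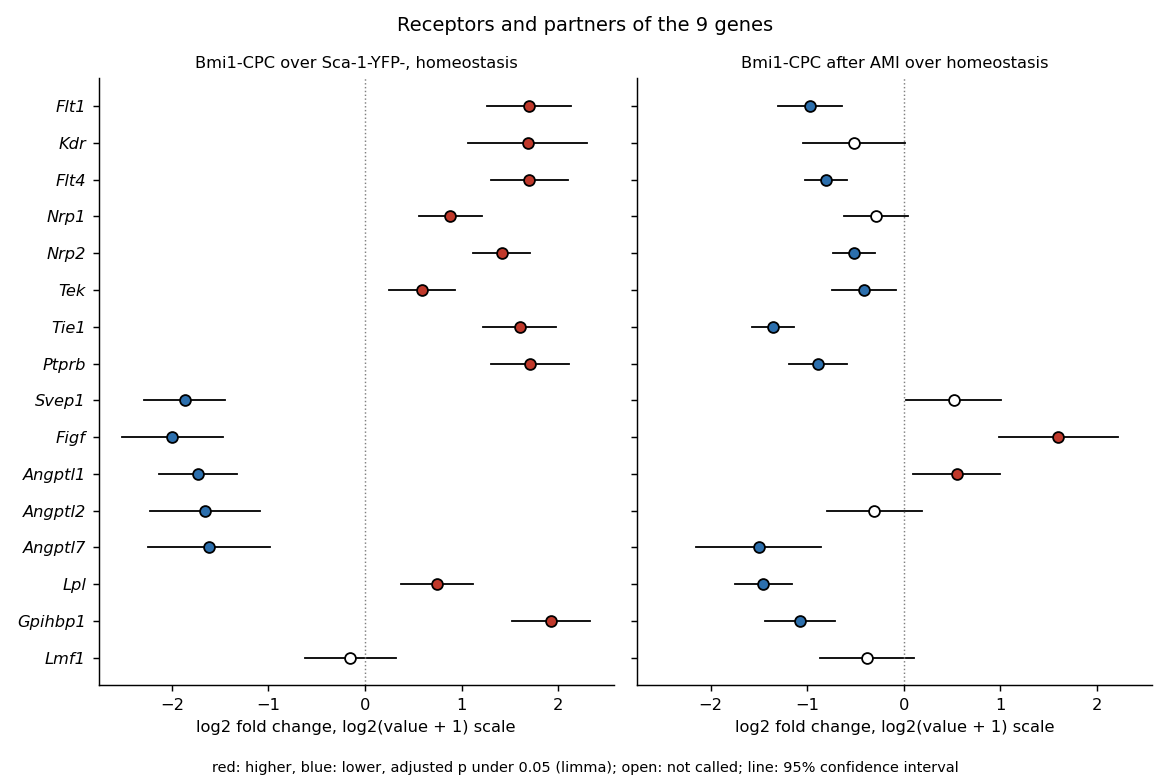
Log2 fold changes on the log2(value + 1) scale with 95% confidence intervals for receptors and partners of the 9 genes, for homeostatic *Bmi1*-CPC over *Sca-1*-YFP- cells (left) and AMI over homeostatic *Bmi1*-CPC (right). All 5 VEGF receptors and co-receptors were higher in the left panel, and *Flt1*, *Flt4* and *Nrp2* were lower in the right panel.

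*Angpt1* (ENSMUSG00000022309), the activating ligand of TIE2, differed between all 3 groups. It had 31.6, 23.0, 22.7 and 17.5 in AMI *Bmi1*-CPC, 11.4, 9.49, 13.5 and 8.53 in homeostatic *Bmi1*-CPC and 35.7, 40.5, 39.1 and 35.2 in the *Sca-1*-YFP- cells. No library of any group overlapped those of another, and AMI *Bmi1*-CPC lay between the homeostatic groups. The log2 fold change was −1.73 (SE 0.16, adjusted p = 6.7e-06) for homeostatic *Bmi1*-CPC over *Sca-1*-YFP- cells, 1.06 (SE 0.19, adjusted p = 8.6e-04) for AMI over homeostatic *Bmi1*-CPC, and −0.67 (SE 0.15, adjusted p = 0.0035) for AMI *Bmi1*-CPC over *Sca-1*-YFP- cells. The libraries keep no strand, and an antisense gene, *Gm17473*, shares 14.2% of the annotated exon bases of *Angpt1* (GENCODE, GRCm38), so its reads cannot be told apart from those of *Angpt1*. The fibroblast marker sum stood in the same order over the groups as *Angpt1* and *Vegfa*, lowest in homeostatic *Bmi1*-CPC. Its members did not move together after AMI: 5 of the 10 were higher, 2 lower (*Gsn*, −1.03, and *Tcf21*, −0.63) and 3 not called, among them *Pdgfra* (0.03) and *Dcn* (0.23). Collagens took the most of the sum in AMI *Bmi1*-CPC, with *Col3a1* at a mean of 6552 in AMI *Bmi1*-CPC and 706 in homeostatic *Bmi1*-CPC, so ratios to the sum are mostly ratios to collagen there. Per 1000 units of that sum *Angpt1* averaged 1.41 ± 0.238 in AMI *Bmi1*-CPC, 1.93 ± 0.872 in homeostatic *Bmi1*-CPC and 1.55 ± 0.135 in the *Sca-1*-YFP- cells (SD, n = 4 each), and these ranges overlapped. Per 1000 units *Vegfa* averaged 2.83 ± 0.274 in AMI *Bmi1*-CPC, 4.29 ± 0.951 in homeostatic *Bmi1*-CPC and 2.14 ± 0.501 in the *Sca-1*-YFP- cells, and its homeostatic *Bmi1*-CPC libraries (3.22 to 5.39) lay above all others. The sum of 10 pericyte and smooth muscle markers stood in another order, lowest in the *Sca-1*-YFP- cells (455 to 837). It was 1668 to 2059 in AMI *Bmi1*-CPC and 1657 to 2591 in homeostatic *Bmi1*-CPC. *Rgs5* took the most of it in *Bmi1*-CPC, with a mean of 1219 in AMI and 1304 in homeostasis, where the mean sums were 1855 and 2030. After AMI 5 of the 10 markers were lower and 2 higher. Of all genes tested, 2750 of 12486 were lower and 21.4% higher after AMI. In homeostasis 9 of these markers were higher in *Bmi1*-CPC and 1 was lower, beside 16.8% of all genes tested that were higher. *Angpt1* and *Vegfa* were lower there. The part of fibroblasts, pericytes or smooth muscle in either gene was not tested.

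*Angpt2* (ENSMUSG00000031465), the TIE2 ligand of endothelial cells, was higher in *Bmi1*-CPC. It had 18.8, 18.8, 18.2 and 24.8 in AMI *Bmi1*-CPC, 16.4, 19.9, 23.3 and 23.4 in homeostatic *Bmi1*-CPC and 8.27, 13.5, 12.7 and 8.97 in the *Sca-1*-YFP- cells. Every *Bmi1*-CPC library lay above every *Sca-1*-YFP- library, and the *Bmi1*-CPC groups overlapped. The log2 fold change was 0.89 (SE 0.19, adjusted p = 0.0027) in homeostasis and −0.04 (95% confidence interval −0.37 to 0.29, adjusted p = 0.85) after AMI, where its sign turned under other scalings. The ratio of *Angpt2* to *Angpt1* within a library separated the 3 groups without overlap: it was 0.594 to 1.41 in AMI *Bmi1*-CPC, 1.44 to 2.75 in homeostatic *Bmi1*-CPC and 0.232 to 0.333 in the *Sca-1*-YFP- cells. *Angpt2* lies inside *Mcph1* on the other strand, with 0 shared exon bases in the annotation.

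**Figure D4:**
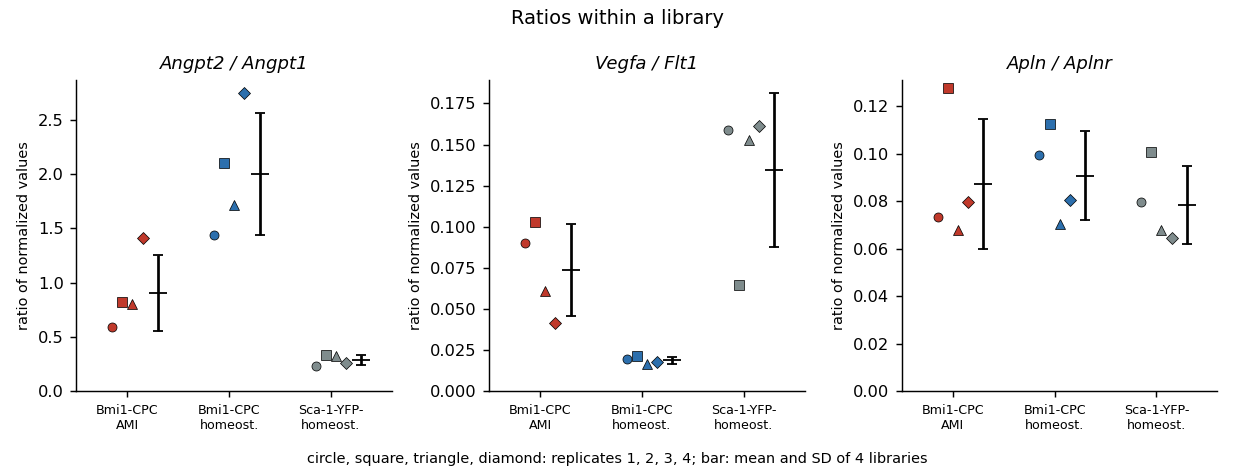
Ratios of normalized values within each library for *Angpt2* to *Angpt1*, *Vegfa* to *Flt1* and *Apln* to *Aplnr*, with 1 point per library and the mean ± SD of 4 libraries. *Angpt2* to *Angpt1* ran from 1.44 to 2.75 in homeostatic *Bmi1*-CPC, above all other libraries, while *Apln* to *Aplnr* overlapped in all 3 groups.

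All 6 genes of the angiopoietin and TIE list were called in homeostasis, 4 higher in *Bmi1*-CPC and 2 lower. After AMI 1 was higher and 3 were lower. Over all genes tested, the share called was 34.4% in homeostasis and 43.4% after AMI. *Angpt1* and *Angpt2* belong to this list and were already counted above. *Tie1*, the co-receptor of TIE2, averaged 89.8 ± 11.1 in AMI *Bmi1*-CPC, 230.6 ± 14.9 in homeostatic *Bmi1*-CPC and 77.6 ± 23.4 in the *Sca-1*-YFP- cells, with log2 fold changes of 1.60 (adjusted p = 2.3e-05) in homeostasis and −1.36 (adjusted p = 3.1e-06) after AMI. *Ptprb*, the phosphatase that restrains TIE2, changed by 1.71 (adjusted p = 2.3e-05) in homeostasis and −0.89 (adjusted p = 3.4e-04) after AMI. *Tek* itself changed less, by 0.59 (adjusted p = 0.010) and −0.41 (adjusted p = 0.045), and both calls were lost when libraries were scaled to their total reads (adjusted p = 0.13 and 0.17). The second was also lost without AMI replicate 1, 2 or 3 or homeostatic *Bmi1*-CPC replicate 3 or 4 (log2 fold changes of −0.29 to −0.42). *Svep1*, an extracellular matrix protein that binds TIE1, went with *Angpt1* in homeostasis, at −1.87 (adjusted p = 1.8e-05).

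*Angptl4* (ENSMUSG00000002289), a secreted inhibitor of lipoprotein lipase (LPL), was the 1 gene of the 9 that was highest in AMI *Bmi1*-CPC and separated from both homeostatic groups. It had 22.8, 50.1, 33.1 and 34.1 in AMI *Bmi1*-CPC, 16.1, 17.4, 16.0 and 17.9 in homeostatic *Bmi1*-CPC and 7.11, 16.2, 18.0 and 14.8 in the *Sca-1*-YFP- cells. All 4 AMI libraries lay above all 8 others, although they were spread from replicate 1 at the low end to replicate 2 at the high end. *Angptl4* had a log2 fold change of 0.96 (SE 0.19, adjusted p = 0.0017) for AMI over homeostatic *Bmi1*-CPC and 1.28 (SE 0.28, adjusted p = 0.0025) for AMI *Bmi1*-CPC over *Sca-1*-YFP- cells. In homeostasis it was not called (0.32, 95% confidence interval −0.19 to 0.83, adjusted p = 0.34).

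*Lpl*, the target of ANGPTL4, was lower after AMI, at 283 ± 48.4 in AMI *Bmi1*-CPC and 775.2 ± 104 in homeostatic *Bmi1*-CPC (SD, n = 4 each, log2 fold change −1.46, adjusted p = 1.3e-05). *Gpihbp1*, which carries LPL on capillary endothelium, changed by −1.08 (adjusted p = 3.2e-04). *Pparg* and *Ppard*, receptors known to switch on *Angptl4*, changed by −0.95 (adjusted p = 2.2e-04) and −0.90 (adjusted p = 0.0011). Thus 4 of the 5 genes listed with *Angptl4* were lower after AMI and none higher, while *Angptl4* was higher. In homeostasis 3 of them were higher in *Bmi1*-CPC than in the *Sca-1*-YFP- cells. Beside this, 2750 of all 12486 genes tested were lower after AMI, and 16.8% of all genes tested were higher in homeostasis. The list was written with 6 genes, of which 5 were found. After AMI 9 of 12 endothelial and all 8 cardiomyocyte markers were lower too, and their part in these values was not tested. The ratio of *Angptl4* to *Lpl* within a library was 0.0845 to 0.215 in AMI *Bmi1*-CPC, 0.0190 to 0.0254 in homeostatic *Bmi1*-CPC and 0.0221 to 0.0361 in the *Sca-1*-YFP- cells.

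Other angiopoietin-like genes did not share this pattern. *Angptl2*, an inflammatory factor of fat and stroma, averaged 142 ± 14.6 in AMI *Bmi1*-CPC, 186 ± 72.4 in homeostatic *Bmi1*-CPC and 570.3 ± 158 in the *Sca-1*-YFP- cells, and was called in homeostasis alone of the main comparisons (−1.66, adjusted p = 3.4e-04). *Angptl7* was lower in both, with log2 fold changes of −1.61 in homeostasis and −1.50 after AMI (adjusted p = 8.3e-04 and 0.0017). *Angptl1* was lower in homeostasis (−1.73, adjusted p = 2.3e-05), and after AMI its change of 0.55 sat at the threshold (adjusted p = 0.0495) and lost its call without any single library other than AMI replicate 3 (0.37 to 0.59).

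Hypoxia genes did not move as 1 block. *Hif1a*, the oxygen-regulated factor known to drive *Vegfa*, was higher after AMI, at 278 ± 13.4 in AMI *Bmi1*-CPC and 90.7 ± 5.15 in homeostatic *Bmi1*-CPC (log2 fold change 1.60, adjusted p = 2.3e-07). *Epas1*, which encodes HIF-2α, was lower (−1.23, adjusted p = 5.3e-05), and so was the HIF hydroxylase *Egln1* (−0.71, adjusted p = 0.0015). Of the 12 hypoxia targets tested, 2 were higher after AMI, 2 lower and 8 not called. *Pgk1*, a glycolytic enzyme, was one of the higher ones (0.64, adjusted p = 0.0020), and *Kdm3a*, a histone demethylase, one of the lower ones (−0.35, adjusted p = 0.0087), a call lost when libraries were scaled to their total reads (adjusted p = 0.18). Among 11 genes known to answer VEGF in endothelium, 2 were higher after AMI and 3 were lower. The higher ones included *Rcan1*, an inhibitor of calcineurin (1.28, adjusted p = 1.1e-05), and the lower ones the Notch ligand *Dll4* (−1.38, adjusted p = 2.2e-04). Of all genes tested, 43.4% were called after AMI and 21.4% were higher, so neither the hypoxia targets nor these 11 genes stand out by their counts.

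*Apln* (ENSMUSG00000037010), the apelin precursor, was higher in *Bmi1*-CPC in either state. It had 25.5, 48.0, 30.4 and 40.8 in AMI *Bmi1*-CPC, 33.3, 33.4, 36.4 and 33.8 in homeostatic *Bmi1*-CPC and 5.85, 14.8, 10.3 and 8.69 in the *Sca-1*-YFP- cells. Each *Bmi1*-CPC library lay above each *Sca-1*-YFP- library, and the AMI libraries were spread on both sides of the narrow homeostatic range. *Apln* had a log2 fold change of 1.75 (SE 0.22, adjusted p = 5.4e-05) for homeostatic *Bmi1*-CPC and 1.79 (SE 0.25, adjusted p = 1.5e-04) for AMI *Bmi1*-CPC over *Sca-1*-YFP- cells. Between AMI and homeostatic *Bmi1*-CPC it was 0.04 (95% confidence interval −0.33 to 0.41, adjusted p = 0.87).

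*Aplnr* (ENSMUSG00000044338), the apelin receptor, had the most reads of the 9 genes, 488 to 3611 per library. It had 348, 375, 447 and 512 in AMI *Bmi1*-CPC, 335, 297, 516 and 420.1 in homeostatic *Bmi1*-CPC and 73.4, 147, 152 and 135 in the *Sca-1*-YFP- cells. The *Bmi1*-CPC groups overlapped fully, and the *Sca-1*-YFP- libraries lay apart below them, replicate 1 lowest. The log2 fold change was 1.64 (SE 0.23, adjusted p = 1.3e-04) in homeostasis and 0.12 (95% confidence interval −0.26 to 0.49, adjusted p = 0.61) after AMI. *Apln* and *Aplnr* kept a like ratio, 0.0679 to 0.128 in AMI *Bmi1*-CPC, 0.0706 to 0.113 in homeostatic *Bmi1*-CPC and 0.0645 to 0.101 in the *Sca-1*-YFP- cells. Per 1000 units of the endothelial marker sum, *Aplnr* averaged 139.6 ± 3.66 in AMI *Bmi1*-CPC, 81.8 ± 15.8 in homeostatic *Bmi1*-CPC and 77.3 ± 15.5 in the *Sca-1*-YFP- cells (SD, n = 4 each). Its AMI libraries (136 to 144) thus lay above all others per unit of this sum, although its own level overlapped that of homeostatic *Bmi1*-CPC. *Apln* did the same, at 9.82 to 17.7 in AMI *Bmi1*-CPC, 6.95 to 7.82 in homeostatic *Bmi1*-CPC and 5.25 to 6.63 in the *Sca-1*-YFP- cells. The endothelial sum itself was lower after AMI, which raises this ratio for an unchanged gene. Of its 12 markers 9 were lower after AMI and 3 were not called, so the ratio depends on the markers chosen. Per 1000 units of the pericyte and smooth muscle sum, mostly *Rgs5* in *Bmi1*-CPC, the *Aplnr* groups overlapped (207 to 249, 149 to 223 and 161 to 288). The part of endothelial cells in the apelin genes was not tested.

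**Figure D5:**
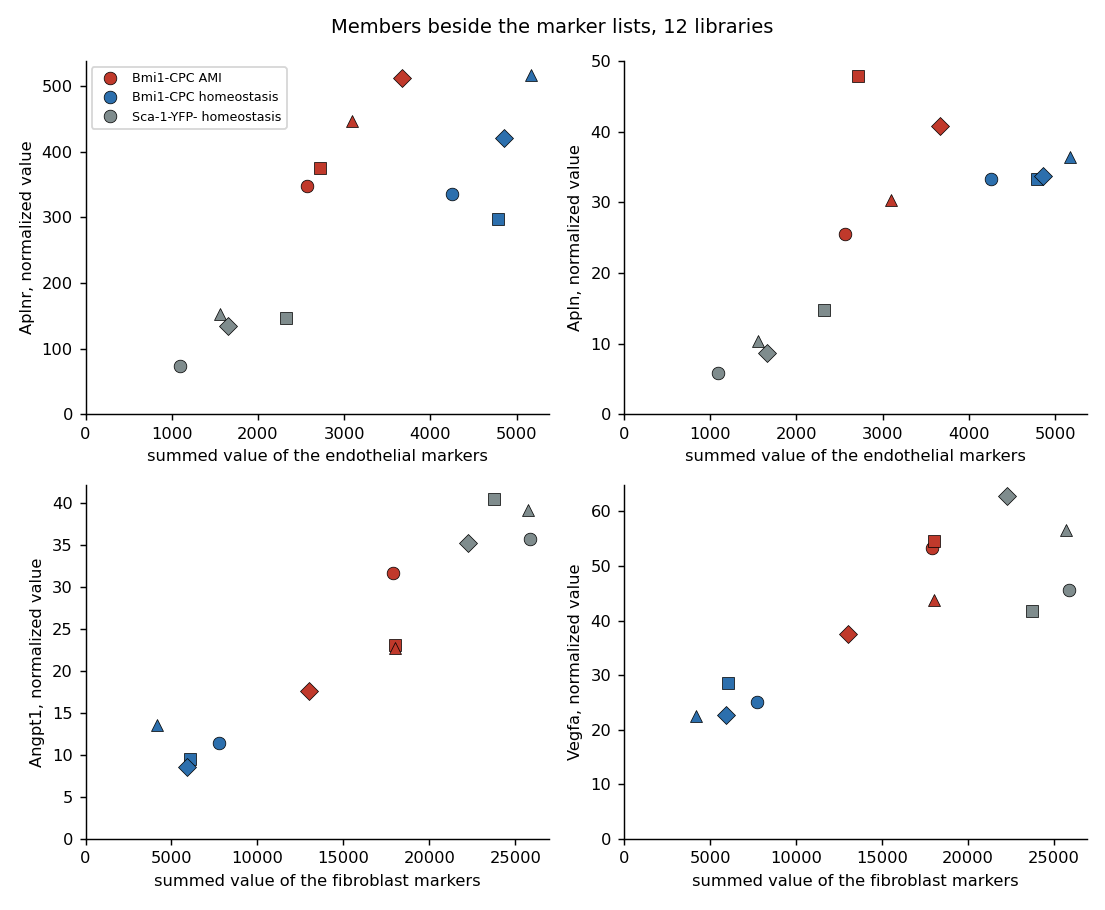
Normalized values of *Aplnr* and *Apln* against the summed endothelial markers and of *Angpt1* and *Vegfa* against the summed fibroblast markers, 1 point per library, in AMI *Bmi1*-CPC (red), homeostatic *Bmi1*-CPC (blue) and *Sca-1*-YFP- cells (grey). AMI *Bmi1*-CPC had *Aplnr* values of 348 to 512 at lower endothelial sums than homeostatic *Bmi1*-CPC.

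Per kilobase of annotated exon, *Aplnr* was far above the other genes in homeostatic *Bmi1*-CPC, at a normalized value of 106 ± 26.4. *Vegfc* followed at 14.2 ± 1.10 and *Apln* at 10.9 ± 0.474. *Vegfa* stood at 5.76 ± 0.645, *Angpt2* at 5.63 ± 0.898, *Angptl4* at 4.76 ± 0.268, *Pgf* at 4.67 ± 2.25, *Vegfb* at 3.32 ± 1.65 and *Angpt1* at 2.06 ± 0.424 (SD, n = 4 libraries). From *Vegfa* on, each gene lay within 1 SD of the next. In *Sca-1*-YFP- cells *Pgf* (12.3 ± 2.22), *Vegfa* (12.1 ± 2.26) and *Vegfc* (11.4 ± 3.99) stood together below *Aplnr* (34.3 ± 9.83), while *Apln* was at 3.15 ± 1.19.

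The 9 genes fell into a few patterns over the 12 libraries, which include the group differences above, so these correlations of log2(value + 1) are a description. *Aplnr* ran with *Apln* (Pearson's r = 0.946), *Angpt2* ran with both (0.945 with *Aplnr*, 0.931 with *Apln*), *Vegfa* ran with *Angpt1* (0.871), and *Pgf* ran against *Aplnr* (−0.930). Of the 8204 genes with a mean value of at least 10, those nearest to *Aplnr* were *Cdk17* (0.994), *Cd93* (0.990), a surface receptor of endothelium, and *Eltd1* (0.985). Nearest to *Apln* were *Cd93* (0.978), *Mcam* (0.977), an adhesion molecule of vessels, and *Mgat4a* (0.973). Nearest to *Angpt2* were *Inpp5a* (0.985), *Tspan2* (0.982) and *Lphn2* (0.975). Nearest to *Pgf* was *Cygb* (0.986), which encodes cytoglobin and averaged 46.1 ± 4.33 in AMI *Bmi1*-CPC, 89.7 ± 41.7 in homeostatic *Bmi1*-CPC and 344 ± 90.0 in the *Sca-1*-YFP- cells. Nearest to *Angpt1* was *Sesn3* (0.969), nearest to *Vegfa* was *Kdelc2* (0.958), and nearest to *Angptl4* was *Kpna1* (0.939). The weakest best matches were *Setdb1* for *Vegfb* (0.910) and *Hiat1* for *Vegfc* (0.906).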

How the data were processed

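Libraries were made from amplified cDNA and keep no strand information. The values used are the normalized expression signal that the authors deposited for 12528 genes in 12 libraries. In the submitters' processing notes the tools are cutadapt, RSEM and edgeR and the mouse build is NCBIM37, and the rule that chose the genes of the tables is not given in the sources used here. The deposited tables also hold the authors' fold change (a score), log2 fold change and adjusted p-value, none of which was used. The homeostatic *Bmi1*-CPC columns are identical in both tables, so all 12 libraries share 1 normalization. Every value (100% within 1e-06) can be written as (reads + 0.5) multiplied by a factor of its library, with reads a whole number.

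Genes that exceeded 1 in 4 or more of the 8 libraries of a comparison were tested with limma 3.58.1 (R 4.3.3) on log2(value + 1) with a variance trend, two-sided, with a Benjamini-Hochberg adjusted p under 0.05. The pseudocount of 1 makes fold changes of low genes too small. Alternatives included edgeR 4.0.16 and DESeq2 1.42.0 on the recovered reads, other pseudocounts, filters and scalings, a replicate block and each library left out. The test was tested on simulated data. p-values measure the spread between pools, and values for few reads carry counting error. Same-numbered homeostatic libraries deviated together (correlations 0.262, 0.246, 0.159 and 0.301, at most 0.0807 between different numbers). Those of the AMI comparison did not (−0.0103 to 0.0754). Replicate 4 of both homeostatic groups also shared the low *Xist* given above. The study's legends speak of matched samples in both comparisons, and what was matched is not given in the sources used here. The main test treated the libraries as unpaired, and results with the replicate block are given below.

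The 9 genes, their pathway lists and the marker lists were chosen with earlier results of these data known. Named are the 9 genes, up to 4 genes per pathway list with the smallest adjusted p over the main comparisons, and for each of the 9 the genes with the highest correlation. *Nrp1*, *Lmf1*, *Xist*, the pericyte marker *Rgs5* and the fibroblast markers *Gsn*, *Tcf21*, *Pdgfra*, *Dcn* and *Col3a1* were named after their values were seen. Exon lengths come from GENCODE (GRCm38), found for 96.8% of the gene IDs, and near-identical transcripts were searched with blastn 2.17.0.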

Additional observations from a re-analysis of the deposited data

Results flagged for a closer look

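In 6 of 111 groups of 4 libraries looked at (37 genes), 1 library stood apart from the other 3, and chance alone flags about 1 group in 20. In homeostatic *Bmi1*-CPC, replicate 3 was high for *Vegfc* (38.9) and for *Apln* (36.4), and replicate 2 was high for *Dll4* (133). In AMI *Bmi1*-CPC, replicate 4 was high for *Angpt2* (24.8). In *Sca-1*-YFP- cells, replicate 2 was high for *Pparg* (34.4) and *Epas1* (905), and the same library had the highest endothelial marker sum of its group (2324, against 1091 to 1657 in the others).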

How the results depend on the processing

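The 6 genes called in homeostasis and the 3 called after AMI kept direction and call under every alternative run, among them other pseudocounts and filters, edgeR, DESeq2, each library left out in turn and, chosen after seeing the data, homeostasis without replicate 4 of both groups. Counts of genes called, both directions together, stayed within 1.5 times, but some counts in 1 direction did not when libraries were scaled to total reads. With the replicate block 2267 genes were higher and 2400 lower in homeostasis, against 2090 and 2196 without it, and 2590 and 2623 after AMI, against 2671 and 2750; the block changed no call among the 9 genes. After AMI *Kdr* was called with the block (adjusted p = 0.0082) and *Angptl1* was not (adjusted p = 0.066). Scaling to total reads in edgeR moved the median change over all genes to −0.25 in homeostasis (1328 higher, 3386 lower), 0.08 after AMI (2775 and 1792) and −0.18 for AMI *Bmi1*-CPC over *Sca-1*-YFP- cells (2024 and 3720, against 3188 and 3298). Values rescaled to the same total gave 1323 higher and 3344 lower in homeostasis, 2804 and 1776 after AMI, and 2015 and 3640 for AMI *Bmi1*-CPC over *Sca-1*-YFP- cells.

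Fold changes near 0 turned sign. In homeostasis *Vegfb* was −0.16 with total reads in edgeR, −0.14 with values rescaled to the same total, −0.054 without replicate 4 of both groups and −0.18 to 0.25 over libraries left out. After AMI *Angpt2* was 0.053 with total reads and 0.057 at the same total. Over libraries left out, the changes after AMI were −0.14 to 0.020 for *Angpt2*, −0.0035 to 0.094 for *Vegfc*, −0.11 to 0.19 for *Apln* and −0.0052 to 0.26 for *Aplnr*. For AMI *Bmi1*-CPC over *Sca-1*-YFP- cells, *Egln1* was −0.10 with total reads, −0.12 at the same total and −0.031 to 0.14 over libraries left out, and *Dll4* was −0.027, −0.033 and −0.048 to 0.38. *Vegfb* could not be tested after AMI with a filter above 5. The cause of these changes was not tested.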
